A study of Mus musculus with 18 samples.

Results

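The regions described here were stretches of mouse embryonic stem (ES) cell chromatin that had a peak of accessibility in every library of the study and spanned 1000 bp or more once the peaks of all libraries were joined. Peaks of the 18 deposited ATAC-seq lists that shared at least 1 bp were merged into 377189 regions. Of these, 18061 held a peak in all 18 libraries, and 7197 of those lay on chromosomes 1 to 19 and were at least 1000 bp wide. These 7197 broad regions were 1.91% of all regions and 39.8% of the regions with a peak in every library. The other 10352 autosomal regions with a peak in every library were narrower than 1000 bp and serve as the comparison, called narrow regions below. The broad regions were chosen by the presence of a peak in every library and by merged width, so widths are given as description and support nothing. The score of a peak was not used in the choice, except that a region whose peak was missing from any library could not be a member.

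ATAC-seq uses a transposase that inserts adapters into DNA not covered by nucleosomes, so dense insertions mark promoters, enhancers and other sites where regulatory proteins keep the fibre open. Broad accessible stretches usually hold several neighbouring openings separated by positioned nucleosomes, and in ES cells such stretches are common at promoters rich in CpG and at clustered enhancers. BAF is a chromatin remodelling complex that slides and ejects nucleosomes. Brg1 is its ATPase and Baf53a is an actin-related subunit of the same complex. Type II topoisomerases (TOP2) pass one DNA duplex through another to relieve tangles and torsion, and ICRF-193 blocks them by holding the closed enzyme clamp on DNA without stabilising a break. The study asked how accessibility depends on TOP2 and on BAF.

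Wild-type ES cells received 1 µM ICRF-193 for 24 h (2 libraries) with DMSO for 24 h as vehicle (2 libraries), or 1 µM ICRF-193 for 1 h (3 libraries) with DMSO labelled 1 h (3 libraries). The treatment protocol of these 6 libraries says 24 h, whereas their titles say 1 h and the series design gives 1 h for ICRF-193, so the titles were followed and each 1 h value depends on them. Brg1 fl/fl cells carrying Actin-CreER received 0.8 µM tamoxifen, which activates the recombinase and deletes the floxed exons (2 libraries), or ethanol (2 libraries). Baf53a fl/- cells carrying Actin-CreER received tamoxifen (2 libraries) or ethanol (2 libraries), so the ethanol cells of that line already lacked 1 Baf53a allele. The tamoxifen and ethanol cells were treated for 24 h and then grown for 48 h in fresh medium before harvest. No library came from tamoxifen-treated cells without a floxed allele. Effects of tamoxifen or of the active recombinase therefore cannot be told apart from those of deletion. All cells grew in serum and LIF and were sorted as viable before transposition. Libraries of a group were passages of a line, and the spread behind each p-value is that of passages, not of independently derived lines. Deletion of Brg1 and Baf53a and the ES identity of the cells were not checked here, because the lists carry no gene names and no annotation of build mm9 was used.

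Each list gave a start, an end and a score per peak, and the scores are the authors' own. List lengths ran from 46431 peaks in tamoxifen-treated Brg1 fl/fl replicate 2 to 129880 peaks in 1 h DMSO replicate 3, and read depth is unknown. The shortest lists, those under 60000 peaks, belonged to 1 h ICRF-193 replicate 2, 1 h DMSO replicate 2 and tamoxifen-treated Brg1 fl/fl replicate 2. The names of the deposited lists set replicate 1 of every group apart from the other replicates by a year, so differences are also given within a replicate number. Width in a library means the bases of a region that lay under peaks of that library. Percentile means the share of a library's own list that scored at or below the highest-scoring peak of the region, with ties given their mean rank.

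The typical broad region was an aggregate of peaks whose edges differed between libraries. Its merged width had a median of 1241 bp (quartiles 1110 and 1437 bp, range 1000 to 2917 bp), against 718 bp for narrow regions. The mean width under peaks of a single library had a median of 761 bp for broad regions and 421 bp for narrow regions. The core, meaning the bases under a peak in all 18 libraries, had a median of 259 bp in broad regions and 150 bp in narrow regions, or 20.3% and 23.5% of the merged width. No base was shared by all libraries in 926 broad regions (12.9%) and in 773 narrow regions (7.47%). A core of 500 bp or more was present in 1051 broad regions (14.6%). Fully 1333 broad regions (18.5%) had 1000 bp or more under peaks of at least 9 libraries.

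The merged width thus overstated what any 1 library showed for most members. No library reached 1000 bp on its own in 2279 broad regions (31.7%), 1 to 8 libraries did in 3735 (51.9%), 9 to 17 did in 1134 (15.8%), and all 18 did in 49 (0.681%). Removing the peaks of 1 particular library would have taken 1147 broad regions (15.9%) below the 1000 bp limit. At least 1 library split the region into several peaks in 6527 broad regions (90.7%), and 9 or more libraries did so in 2164 (30.1%). A single unbroken peak in every library was found in 670 broad regions (9.31%), against 6720 narrow regions (64.9%). The label broad therefore held for the merged regions and, in 49 of them, for every library.

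**Figure D1:**
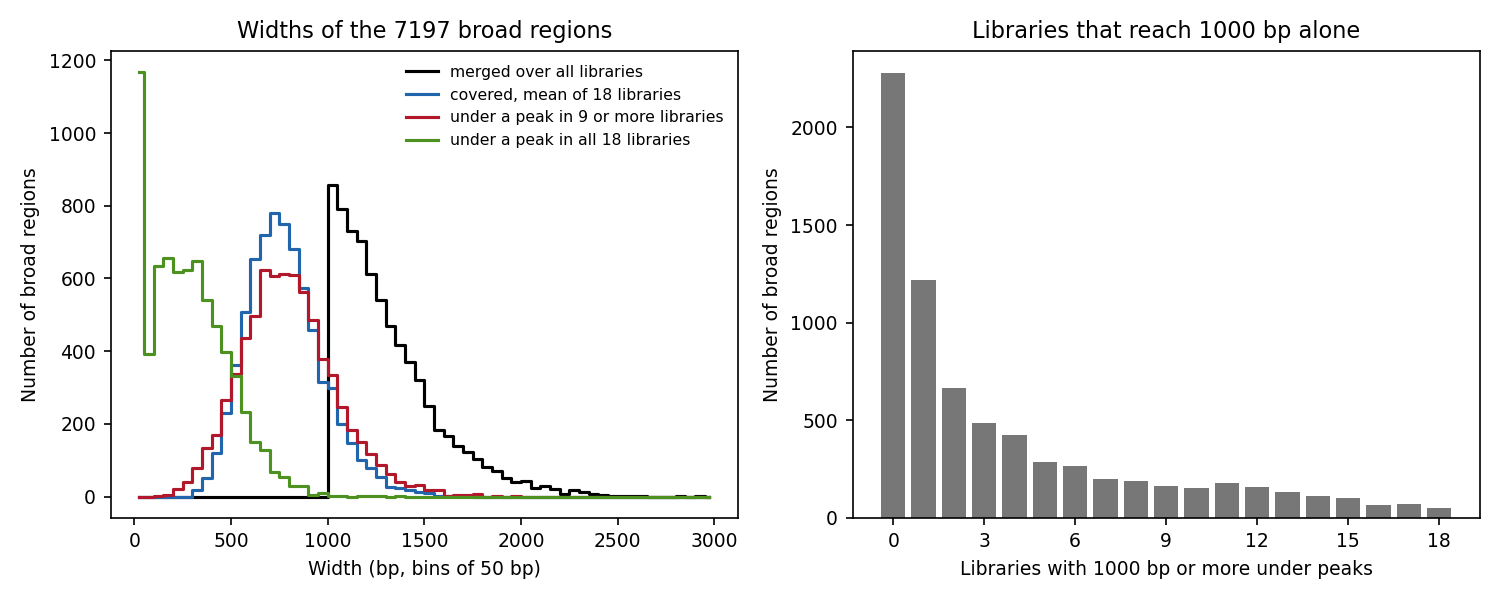
Left, number of broad regions by width in bp (bins of 50 bp) for the merged region and the mean covered by a library. Further curves show the bases under a peak in 9 or more libraries and in all 18 libraries (the core). Right, number of broad regions by how many libraries had 1000 bp or more under peaks alone; 2279 regions stand at 0 and 49 at 18.

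The limit of 1000 bp fell in a dense part of the width distribution. Of the members, 1648 (22.9%) were narrower than 1100 bp, 1386 (19.3%) reached 1500 bp and 177 (2.46%) reached 2000 bp. The members on the limit, each 1000 bp wide, began at chr1:36636975, chr1:58052496 and chr1:136858647, with mean covered widths of 552 ± 138, 743 ± 115 and 557 ± 165 bp (SD, n = 18 libraries). The regions just outside it, each 999 bp wide, began at chr11:4086352, chr12:87582435 and chr12:117285495, with mean covered widths of 596 ± 158, 605 ± 134 and 800 ± 106 bp (SD, n = 18). The covered widths of these 6 regions overlapped across the limit.

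Width in a library followed the length of its list. After 24 h of ICRF-193 the median width over the 7197 broad regions was 829 and 679 bp in replicates 1 and 2, against 808 and 820 bp with DMSO. The 1 h libraries gave 866, 550 and 796 bp with ICRF-193, against 945, 577 and 834 bp with DMSO. In the Brg1 fl/fl line the medians were 819 and 522 bp with tamoxifen, against 793 and 777 bp with ethanol. In the Baf53a fl/- line they were 819 and 739 bp with tamoxifen, against 907 and 755 bp with ethanol. The narrowest medians came from the same 3 libraries as the shortest lists. In each of the 4 comparisons the library values of the groups overlapped.

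As group means the median width was 754 ± 106 bp with 24 h ICRF-193 and 814 ± 8.49 bp with DMSO (SD, n = 2 each). At 1 h it was 737 ± 166 bp with ICRF-193 and 785 ± 189 bp with DMSO (SD, n = 3 each), and every replicate number had the lower value in ICRF-193, by 79, 27 and 38 bp. Tamoxifen-treated Brg1 fl/fl cells averaged 670.5 ± 210 bp and their ethanol controls 785 ± 11.3 bp, with a within-number difference of 26 bp in replicate 1 and -255 bp in replicate 2. Tamoxifen-treated Baf53a fl/- cells averaged 779 ± 56.6 bp and their ethanol controls 831 ± 108 bp. Across the 18 libraries, which differ in list length by library as well as by group, list length and median width had a Spearman rho of 0.865. The ratio of broad to narrow median width ran between 1.763 and 1.915 and had a rho of -0.0733 with list length.

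**Figure D2:**
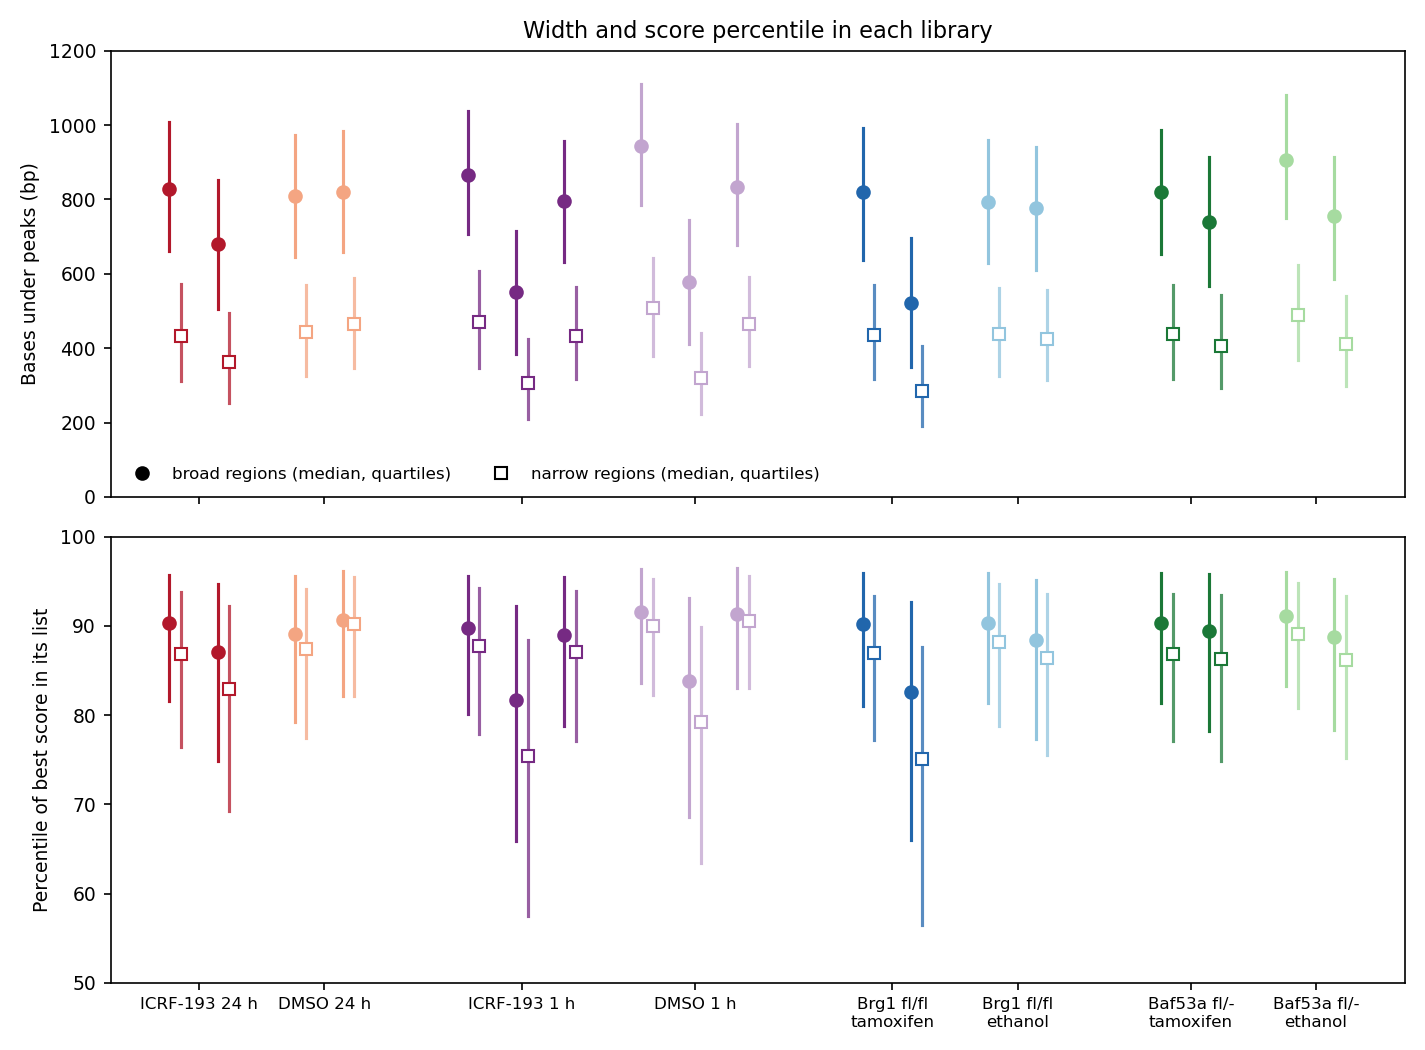
Bases under peaks (bp, top) and percentile of the best score in its list (bottom) in each of the 18 libraries, with medians and quartiles of broad regions (filled circles) and narrow regions (open squares), each perturbed group left of its control. Broad medians lie between 522 and 945 bp and between percentiles 81.66 and 91.52, and narrow regions are lower in both panels in every library.

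The extent of the regions around their most shared position fell off alike on both sides. Around the midpoint of the bases held by most libraries, 98.6% of broad regions were under a peak in the 24 h ICRF-193 libraries on average and 99.5% in the DMSO libraries. At 500 bp from that point, towards higher coordinates, the share was 26.9% with 24 h ICRF-193 and 29.6% with DMSO. It was 25.5% with 1 h ICRF-193 and 28.9% with 1 h DMSO. In Brg1 fl/fl cells it was 21.4% with tamoxifen and 27.6% with ethanol, and in Baf53a fl/- cells 27.4% with tamoxifen and 30.7% with ethanol. Narrow regions were at 2.2% to 3.73% at this distance on either side. These shares were lower in the perturbed group in each comparison, as were the mean list lengths.

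**Figure D3:**
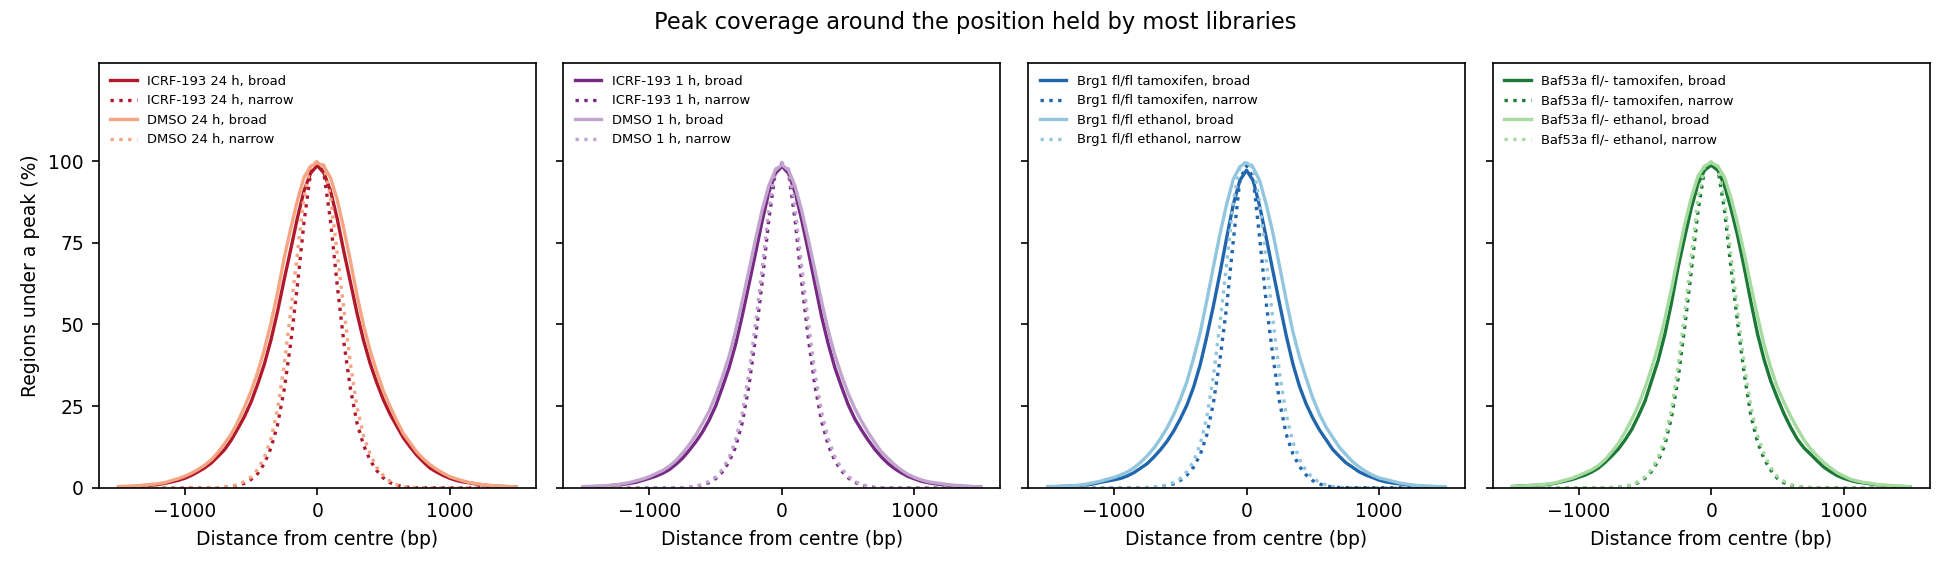
Percent of regions under a peak by distance in bp from the position held by most libraries, averaged over the libraries of a group, for broad (solid) and narrow (dashed) regions, 1 panel per comparison. At 500 bp the broad regions stand between 21.1% and 30.7% and the narrow regions between 2.2% and 3.73%.

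The median score of broad regions was high in every list, and they did not fill its top. Both broad and narrow regions needed a peak in every list, the short ones included, which favours high scores. The mean percentile over libraries had a median of 87.1 for broad regions (quartiles 77.1 and 94.2) and 83.2 for narrow regions. The best of several peaks was taken more often in broad regions. In a library 27.54% to 37.75% of them held 2 or more peaks, against 3.41% to 6.414% of narrow regions. The part of this in the difference was not tested. The best peak stood above the list median in every library in 5214 broad regions (72.4%) and in 5874 narrow regions (56.7%). It stood in the top 10% of every list in 1273 broad regions (17.7%) and 899 narrow regions (8.68%). Peaks inside broad regions made up 7.641% to 21.03% of a list and 16.85% to 33.35% of its bases. They held 40.47% to 57.5% of the top 1% of scores, and narrow regions held 38.96% to 48.6% of it. Peaks of 1000 bp or more numbered 159 to 2537 a list, and 87.15% to 98.74% of them lay in broad regions. Within a library, width and best score of broad regions had a Spearman rho of 0.0825 to 0.544 (7197 regions of the same library, given as a description).

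The median percentile of broad regions was 90.37 and 87.08 in the 24 h ICRF-193 libraries, against 89.13 and 90.65 with DMSO. It was 89.72, 81.66 and 88.96 with 1 h ICRF-193, against 91.52, 83.77 and 91.36 with 1 h DMSO. It was 90.22 and 82.59 in tamoxifen-treated Brg1 fl/fl cells, against 90.36 and 88.38 with ethanol. In Baf53a fl/- cells it was 90.33 and 89.46 with tamoxifen, against 91.05 and 88.8 with ethanol. The lowest values were again those of the 3 shortest lists, and list length and median percentile had a Spearman rho of 0.913 over the 18 libraries. A percentile in a whole list depends on how many weak peaks the list holds.

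Scores were therefore ranked also among the 18061 regions with a peak in every library, which are the same regions in each list. On this scale of 0 to 100 broad regions had a median rank of 56.09 and 55.24 with 24 h ICRF-193, against 52.57 and 50.35 with DMSO, and the groups did not overlap. The difference in group means was 4.205 points, whereas the whole-list percentile differed by -1.165 points, the opposite direction. Median ranks were 56.96 and 58.4 in tamoxifen-treated Brg1 fl/fl cells, against 54.29 and 53.7 with ethanol, also without overlap and 3.685 points apart. They were 57.33 and 55.83 in tamoxifen-treated Baf53a fl/- cells, against 54.66 and 54.99 with ethanol, without overlap and 1.755 points apart. At 1 h they were 53.47, 55.87 and 53.03 with ICRF-193, against 53.19, 55.22 and 51.27 with DMSO, which overlapped. The mean was higher in the perturbed group in all 4 comparisons, by 0.8967 points at 1 h, and the groups were free of overlap in the 3 with 2 libraries a group. The highest median rank, 58.4, was that of the shortest list (46431 peaks). The lowest, 50.35 and 51.27, were those of lists with 127030 and 129880 peaks. The second shortest list, 1 h ICRF-193 replicate 2 (50611 peaks), stood at 55.87. In the 24 h comparison, replicate 1 had 98440 peaks with ICRF-193 and 98166 with DMSO, at ranks of 56.09 and 52.57. In Brg1 fl/fl cells, tamoxifen replicate 1 (84763 peaks) stood at 56.96 and ethanol replicate 2 (85007 peaks) at 53.7. In all 4 comparisons the perturbed group also had the shorter mean list, and the part of list length in these ranks was not tested. No test is given for a score over chosen members.

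Broad regions were spread over all 19 autosomes, with some dense megabases. Members made up 36.52% (chromosome 10) to 43.95% (chromosome 12) of the autosomal regions with a peak in every library on a chromosome. The nearest other member lay a median of 69.3 kb away (quartiles 32.2 and 147 kb), 5.22% of members had another within 10 kb and 1.14% had none within 1 Mb. The megabase with most members was chr9 from 108 to 109 Mb, where 21 of 37 regions with a peak in every library were broad. It was followed by chr7 from 134 to 135 Mb with 20 of 36 and chr4 from 155 to 156 Mb with 18 of 21. Coordinates are mm9, counted from 1.

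The widest regions and the best-scoring regions were different ones. The widest, chr13:37916888-37919804 (2917 bp), had 47 peaks over the libraries, no base shared by all of them and a covered width of 958 ± 503 bp (SD, n = 18; range 236 to 2041 bp). Its percentile was 61.2 ± 14.6. The next, chr5:3341971-3344794 (2824 bp) and chr14:40284918-40287561 (2644 bp), had no shared base either, with percentiles of 69.9 ± 11.2 and 64.9 ± 14.3. Of the 5 widest, chr19:32830194-32832749 (2556 bp) alone had a core, of 422 bp, and covered 1536 ± 299 bp at percentile 85.4 ± 4.72. The fifth, chr9:85735975-85738526 (2552 bp), covered 1407 ± 386 bp at percentile 74.8 ± 9.76.

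The highest mean percentile belonged to chr2:98506407-98507472 (1066 bp), at 99.99, where every library held 1 peak of 1063 to 1066 bp and the core was 1063 bp. It was followed by chr2:176858165-176859346 (1182 bp, percentile 99.96, covered width 737 ± 160 bp) and chr17:64680654-64681989 (1336 bp, percentile 99.94, covered width 1145 ± 141 bp). The next were chr16:42875036-42876544 (1509 bp, percentile 99.93) and chr3:40697516-40698596 (1081 bp, percentile 99.93), the second of which reached 1000 bp in no single library. The longest core, 1374 bp, was that of chr12:119539304-119541167, which covered 1686 ± 78 bp at percentile 99.06. Of the next 4, chr17:3081481-3082887 covered 1367 ± 50.9 bp at percentile 99.8. The other three lay within 6 kb of each other at chr17:39979981-39981806, chr17:39982054-39983590 and chr17:39984390-39985731, with percentiles of 95.4 ± 3.34, 86.4 ± 6.23 and 95.7 ± 3.37. The SD of covered width over libraries was 15 to 119 bp in the 5 regions with the longest cores and 299 to 503 bp in the 5 widest. A long core needs bases shared by all libraries, and differing edges add to merged width. The choice of the sets thus favours this difference, and nothing is read from it. Sequence, repeat content and mappability of the named regions were not examined. Their scores and edges are therefore given as listed and not as a measure of openness at a single-copy site.

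Of the 4 perturbations, deletion of Brg1 gave the most calls among broad regions. For each region the ranks among the 18061 regions were turned into normal scores (the values a standard normal distribution takes at those ranks) and fitted with limma over all 18 libraries, with p-values adjusted by Benjamini-Hochberg over 18061 regions. After Brg1 deletion 102 broad regions (1.42%) fell in rank and 7 (0.0973%) rose at an adjusted p under 0.05 in limma. The background over all regions tested was 3.59% lower and 0.172% higher, 3.77% in either direction, and 523 narrow regions were lower. In either direction 1.51% of broad regions and 5.27% of narrow regions were called, a difference that was not tested. Without regard to p, both tamoxifen libraries ranked below both ethanol libraries in 15.0% of broad regions, against 20% of all regions, and above both in 28.9%, against 25.5%. In these bulk libraries a lower score from fewer cells with an open site cannot be told apart from less opening per cell.

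The count rested on 2 libraries a group and moved with single libraries. It was 34 without ethanol replicate 1, 63 without ethanol replicate 2, 115 without tamoxifen replicate 1 and 30 without tamoxifen replicate 2, the short list. It was 68 with no variance trend in limma and 105 for broad regions whose 1000 bp width was taken from libraries outside the Brg1 comparison.

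The 102 regions that fell ranked high in control cells. Their median percentile was 84.71 and 48.4 in the tamoxifen libraries of Brg1 fl/fl cells, against 97.58 and 96.75 in the ethanol libraries. On the rank among regions with a peak in every library the medians were 38.23 and 15.74 with tamoxifen, against 86.77 and 85.64 with ethanol. Of the 102, 63 lay in the highest quintile of broad regions by rank in the ethanol libraries. These ethanol libraries also entered the call, which favours regions that rank high in them, so this count supports nothing. They remained called as peaks in both tamoxifen libraries, as the choice of members requires. Their width, which the choice had used, had a median of 415.5 bp with tamoxifen and 706.75 bp with ethanol, and 2 of them were also called for width. Their merged widths ran from 1000 to 1975 bp with a median of 1131.5 bp, and they lay on all 19 autosomes. In 55 of them the 2 tamoxifen libraries of the Brg1 line held the lowest ranks of all 18 libraries. The same held in 281 of the 523 narrow regions called lower, in 135 of all 7197 broad regions and in 629 of all 18061 regions. The call itself favours low ranks in these 2 libraries, so nothing is read from this count.

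Named by the smallest p, the region chr6:68802225-68803546 (1322 bp) stood at percentiles 94.37 and 75.49 with tamoxifen, against 99.95 and 99.92 with ethanol. In limma its rank differed by -2.46 on the normal-score scale (SE 0.326, adjusted p 7.638e-06). In the other 14 libraries it stood at 94.82 to 99.92. The region chr8:75178545-75179754 (1210 bp) stood at 73.31 and 3.022 with tamoxifen, against 96.19 and 99.58 with ethanol, and limma gave -3.31 (SE 0.452, adjusted p 1.255e-05). The region chr11:93469691-93470747 (1057 bp) stood at 68.71 and 22.98 with tamoxifen, against 97.56 and 96.98 with ethanol, and limma gave -2.56 (SE 0.354, adjusted p 1.34e-05). In all 3 the libraries of the groups did not overlap. Covered widths of the chr11 region were 370 and 305 bp with tamoxifen, against 664 and 702 bp with ethanol. These 3 regions stayed past the threshold under each of 8 alternative settings.

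The 7 regions that rose included chr14:87792689-87793738 (1050 bp), at percentiles 97.37 and 95.58 with tamoxifen, against 87.43 and 66.77 with ethanol. Its limma difference was 1.82 (SE 0.454, adjusted p 0.01297). They included chr7:74789717-74791257 (1541 bp), at 99.48 and 97.45 with tamoxifen, against 97.09 and 89.4 with ethanol (limma 1.15, SE 0.312, adjusted p 0.02598). They also included chr12:4358098-4359474 (1377 bp), at 99.28 and 95.49 with tamoxifen, against 93.67 and 84.63 with ethanol (limma 1.37, SE 0.384, adjusted p 0.03231). Each of these 3 lost its call under 5 or 6 of the 8 alternative settings.

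**Figure D4:**
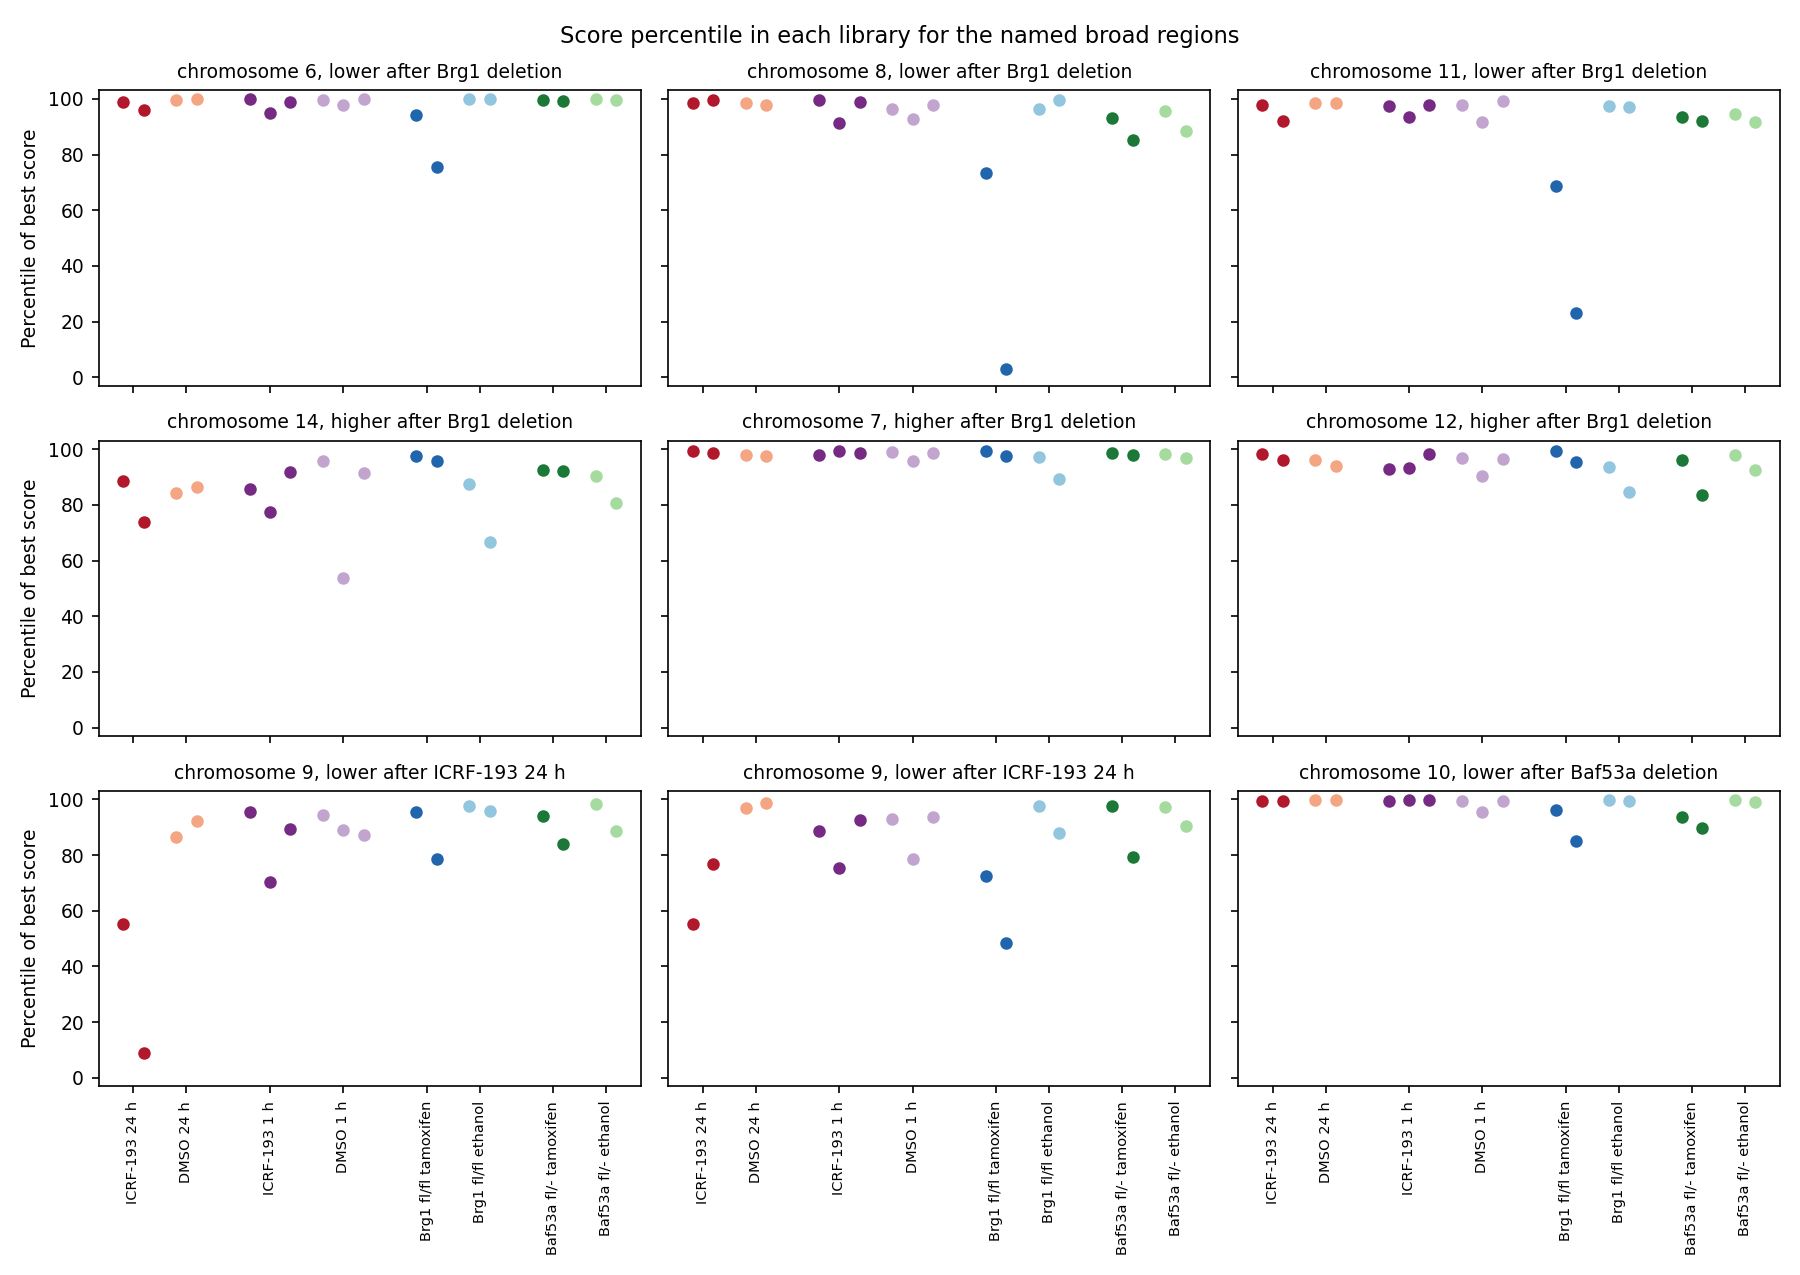
Percentile of the best score in each of the 18 libraries for the named broad regions called for rank, 1 panel per region, with each perturbed group left of its control. In the chr8 region lower after Brg1 deletion the tamoxifen libraries stand at 73.31 and 3.022 and the ethanol libraries at 96.19 and 99.58.

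The regions that fell after Brg1 deletion were also examined in the other 3 comparisons, which share no library with the Brg1 comparison. The Baf53a comparison does share its tamoxifen and ethanol treatment and the Actin-CreER recombinase. In Baf53a fl/- cells 80 of the 102 (78.4%) had a limma rank difference below 0, against 45.4% of all broad regions, with a median of -0.377. Their median percentile was 92.56 and 91.85 with tamoxifen, against 97.05 and 92.96 with ethanol. By replicate number 84 were lower in replicate 1 and 61 in replicate 2. With 24 h ICRF-193, 84 of the 102 (82.4%) were below 0, against 39.5% of all broad regions, with a median of -0.394. Their median percentile was 94.82 and 92.78 with ICRF-193, against 96.95 and 97.72 with DMSO, and 75 and 80 were lower in replicates 1 and 2. With 1 h ICRF-193, 49 of the 102 (48.0%) were below 0, against 46.5% of all broad regions, with a median of 0.0102.

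These shares are descriptions of a set picked in the Brg1 comparison, with no test. Most of the set ranked high in the Brg1 ethanol libraries. In the whole highest quintile by that rank (1439 broad regions), 44.6% were below 0 after Baf53a deletion, 47.0% with 24 h ICRF-193 and 47.8% with 1 h ICRF-193. Of the 523 narrow regions called lower after Brg1 deletion, 78.6% were below 0 after Baf53a deletion. With ICRF-193 the share was 74.0% at 24 h and 53.0% at 1 h. The same comparisons gave 51.0%, 53.4% and 51.8% among all narrow regions, against 45.4%, 39.5% and 46.5% among all broad regions. Of the 7 regions that rose, 1 was below 0 after Baf53a deletion, 1 with 24 h ICRF-193 and 2 with 1 h ICRF-193.

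**Figure D5:**
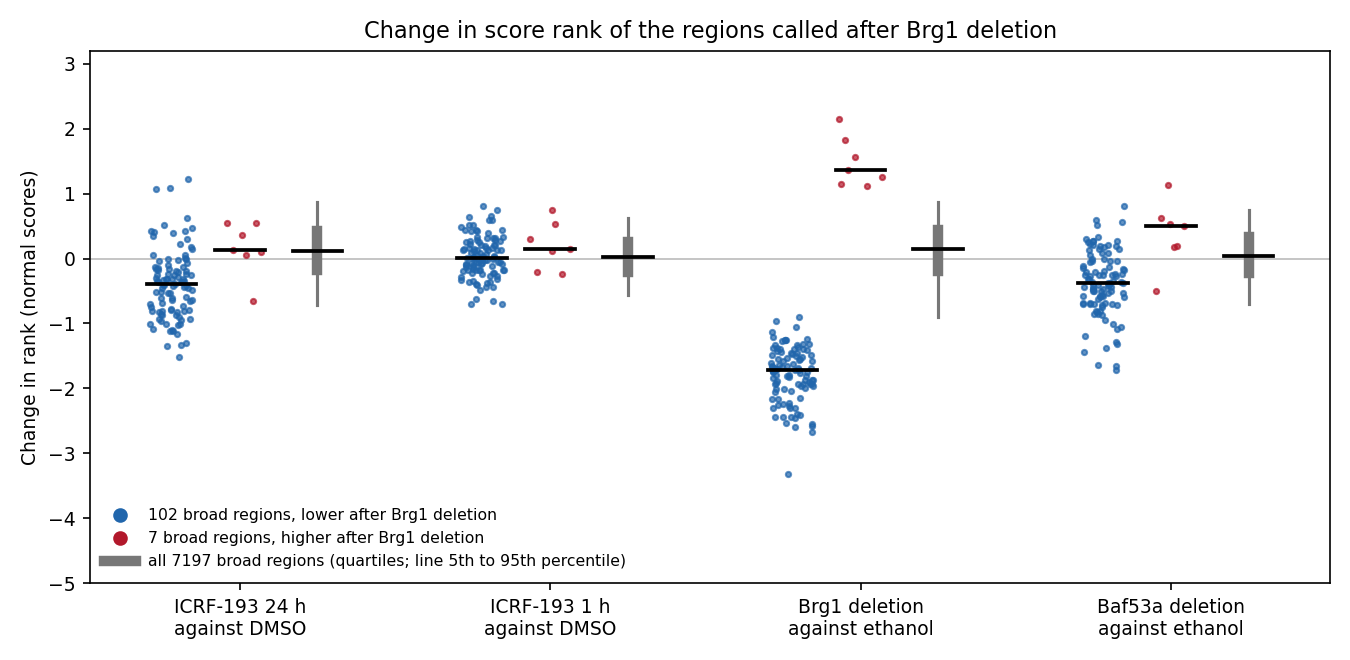
Change in rank (normal scores, perturbed minus control) in the 4 comparisons for the 102 broad regions lower and the 7 higher after Brg1 deletion, 1 point per region, beside the quartiles and the 5th to 95th percentile of all 7197 broad regions. The 102 regions have medians of -0.377 after Baf53a deletion, -0.394 with 24 h ICRF-193 and 0.0102 with 1 h ICRF-193.

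For width after Brg1 deletion, 11 broad regions (0.153%) were called lower and none higher, beside a background of 0.0886% (16 of 18061), and nothing is read from this because width entered the choice of members. The region chr13:26096482-26097512 (1031 bp) covered 179 and 190 bp with tamoxifen, against 881 and 780 bp with ethanol, a difference on the centred log2 scale in limma of -1.88 (SE 0.27, adjusted p 0.01876). The region chr14:120761721-120763152 (1432 bp) covered 215 and 122 bp with tamoxifen, against 902 and 775 bp with ethanol. The region chr8:35278297-35279391 (1095 bp) covered 254 and 107 bp with tamoxifen, against 603 and 933 bp with ethanol. None of these libraries overlapped between groups. Leaving out any 1 of these libraries left 1 in its group and changed the count of calls. Without tamoxifen replicate 1 the tamoxifen group was the shortest list alone.

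In the Baf53a comparison 1 broad region was called for rank and none for width. The region chr10:7172824-7174161 (1338 bp) stood at percentiles 93.81 and 89.55 in tamoxifen-treated Baf53a fl/- cells, against 99.88 and 98.98 with ethanol. Its limma rank difference was -1.71 (SE 0.297, adjusted p 0.02661), and it was the 1 call of 18061 regions (background 0.00554%). In Brg1 fl/fl cells the same region stood at 96.12 and 85.06 with tamoxifen, against 99.87 and 99.57 with ethanol, with a limma difference of -1.62 (SE 0.297, adjusted p 0.0005629). With 24 h ICRF-193 it stood at 99.43 and 99.56, against 99.83 and 99.94 with DMSO. The call was lost without ethanol replicate 1 and without tamoxifen replicate 2, and without tamoxifen replicate 1 there were 6 calls and without ethanol replicate 2 there were 2. Both tamoxifen libraries ranked below both ethanol libraries in 14.7% of broad regions, against 17.5% of all regions, and above both in 21.6%, against 19.6%. At an unadjusted p under 0.05 in limma, 356 broad regions (4.95%) differed in rank and 311 (4.32%) in width, against 7.12% and 4.49% of all regions.

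For width the smallest p after Baf53a deletion was that of chr14:62911215, a region of 1164 bp that covered 253 and 153 bp with tamoxifen, against 955 and 503 bp with ethanol. It was not called (limma adjusted p 0.315). Without tamoxifen replicate 1 there were 5 width calls, and without ethanol replicate 1 there was 1.

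By the limma contrast of the 2 comparisons, Brg1 and Baf53a effects differed in rank in 6 broad regions (0.0834%), against 0.194% of all regions. All 6 had the lower value after Brg1 deletion, a direction called in 0.188% of all regions. They include the chr6, chr8 and chr11 regions above. In the chr8 region the Baf53a fl/- libraries stood at 93.27 and 85.12 with tamoxifen, against 95.72 and 88.43 with ethanol, and the difference of effects was -3.07 (SE 0.639, limma adjusted p 0.0262). In the chr11 region they stood at 93.45 and 92.19 with tamoxifen, against 94.68 and 91.6 with ethanol, and the difference of effects was -2.55 (SE 0.5, limma adjusted p 0.01824). In the chr6 region they stood at 99.63 and 99.22 with tamoxifen, against 99.92 and 99.51 with ethanol. No broad region differed in width between the deletions in limma, with 399 (5.54%) at an unadjusted p under 0.05, against 5.51% of all regions. The smallest p was at chr9:6167883 (1169 bp), which covered 292 and 167 bp with tamoxifen, against 814 and 715 bp with ethanol in Brg1 fl/fl cells. In Baf53a fl/- cells it covered 1014 and 965 bp with tamoxifen, against 959 and 811 bp with ethanol, and the difference of effects was not called (limma adjusted p 0.2451).

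With 24 h ICRF-193, 2 broad regions fell in rank and none rose (background 0.0941%, 0.0886% lower). The region chr9:9393933-9395039 (1107 bp) stood at percentiles 55.16 and 8.891 with ICRF-193, against 86.59 and 92.25 with DMSO, and limma gave -2.27 (SE 0.468, adjusted p 0.031). The region chr9:38640302-38641382 (1081 bp) stood at 55.16 and 76.67 with ICRF-193, against 97.08 and 98.52 with DMSO, and limma gave -2.23 (SE 0.473, adjusted p 0.03703). In both regions the groups did not overlap. In Brg1 fl/fl cells the second stood at 72.44 and 48.4 with tamoxifen, against 97.5 and 88.07 with ethanol (limma -1.58, adjusted p 0.05007). There were 0 calls without either DMSO library and 4 without either ICRF-193 library, and each named region lost its call under 6 of 8 alternatives. Both ICRF-193 libraries ranked below both DMSO libraries in 13.3% of broad regions, against 18.9% of all regions, and above both in 26.0%, against 21.2%.

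One broad region was called for width at 24 h (background 0.00554%), and nothing is read from it. The region chr11:17837067-17838513 (1447 bp) covered 264 and 140 bp with ICRF-193, against 746 and 1046 bp with DMSO (limma -2.04, SE 0.29, adjusted p 0.02681). At 1 h it covered 937, 540 and 968 bp with ICRF-193, against 889, 578 and 1012 bp with DMSO. The count was 14 without ICRF-193 replicate 1 and 0 without any of the other 3 libraries.

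With 1 h ICRF-193, no broad region was called in limma for rank or width, and none of the 18061 regions was (background 0%). At an unadjusted p under 0.05 in limma, 366 broad regions (5.09%) differed in rank and 384 (5.34%) in width, against 5.53% and 4.63% of all regions. All ICRF-193 libraries ranked below all DMSO libraries in 4.18% of broad regions, against 4.83% of all regions, and above all of them in 6.04%, against 5.08%. The smallest p for rank was at chr2:75507369 (1438 bp), with percentiles of 59.2, 0.7172 and 62.77 with ICRF-193, against 91.83, 75.24 and 86.86 with DMSO (limma -1.88, adjusted p 0.8474). The smallest p for width was at chr13:8994723 (1199 bp), which covered 1086, 695 and 1144 bp with ICRF-193, against 783, 451 and 689 bp with DMSO (limma 0.70, adjusted p 0.9999). Both counts stayed at 0 when each library, or both replicate 2 libraries, were left out. The 24 h and 1 h effects of ICRF-193 differed in no broad region in limma for rank (background 0.00554%) or width. At an unadjusted p under 0.05 in limma, 400 (5.56%) differed in rank and 365 (5.07%) in width, against 6.92% and 4.58% of all regions. The smallest p for rank was at chr8:116038019 (1812 bp), at percentiles 71.67 and 44.4 with 24 h ICRF-193, against 91.46 and 95.32 with DMSO. At 1 h it stood at 94.75, 79.01 and 86.82 with ICRF-193, against 79.0, 59.27 and 91.01 with DMSO, and the difference of effects was not called (limma adjusted p 0.2765). For width it was the chr11:17837067-17838513 region described above (limma adjusted p 0.2362).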

How the data were processed

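ATAC-seq peaks were deposited as 18 lists, 1 per library, each with a position, a name and a score per peak. The score of a peak was set by the authors, and neither the labels nor the lists say in what unit, so it was used here only through ranks. The submitters' processing notes name build mm9, Bowtie 0.12.9, MACS2 and edgeR 3.12.1, without saying what each was used for. The lists hold no read counts, so sequencing depth and its counting error could not be stated. Between 82.4% and 91.4% of the peaks of a list shared their score with another peak.

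Peaks of all lists sharing at least 1 bp were merged (Python 3.11.15, pandas 2.3.3, numpy 2.4.6), and the number of merged regions was checked with bedtools 2.31.1. Group medians are given without a test. Width was log2 of covered bases, centred in each library on its median over the 18061 regions. That centring removed a shift of all regions of -0.158 (24 h ICRF-193), -0.0908 (1 h ICRF-193), -0.291 (Brg1) and -0.0913 (Baf53a) on the log2 scale. Rank was the normal score of the best peak score among these regions. Both were fitted in limma 3.58.1 (R 4.3.3) with 8 group terms, a variance trend and Benjamini-Hochberg adjustment over 18061 regions. Regions were called at an adjusted p under 0.05, and all 7197 members were tested. The only filter was the need for a peak in all 18 libraries. Regions that lost their peak in any library were thus not tested, and such losses are not in the counts. The fit was tested on simulated data. All groups share 1 estimate of spread, and no comparison shares control libraries.

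The regions named are the 5 widest, the 5 of highest mean percentile, the 5 of longest core, 3 on each side of the width limit, the 3 densest megabases and, per comparison and measure, the 3 calls of smallest p in each direction, or the member of smallest p where none was called. Alternatives were other width limits, overlaps, scores and scalings, equal list lengths, a replicate block and leaving out each library. Members and lists were chosen with earlier results of these data known.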

Additional observations from a re-analysis of the deposited data

Results flagged for a closer look

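A difference between the effects of Brg1 deletion and Baf53a deletion was tested in limma as a contrast of the 2 comparisons. It was called in 6 broad regions (0.0834%), against 35 of all 18061 regions (0.194%). In each of the 6 the rank was lower after Brg1 deletion, as in 34 of the 35. In chr11:93469691-93470747 the difference of effects was -2.55, in chr8:75178545-75179754 it was -3.07 and in chr6:68802225-68803546 it was -2.09 on the normal-score scale, with percentiles given above. In chr10:33095164-33096226 it was -1.72 (SE 0.312, limma adjusted p 0.00896). That region stood at percentiles 98.48 and 95.33 with tamoxifen, against 99.94 and 99.97 with ethanol in Brg1 fl/fl cells, and at 99.97 and 99.97 with tamoxifen, against 99.98 and 99.9 with ethanol in Baf53a fl/- cells.

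In chr1:112670720-112671920 the difference was -2.85 (SE 0.603, limma adjusted p 0.03093). That region stood at 84.28 and 22.98 with tamoxifen, against 99.57 and 97.09 with ethanol in Brg1 fl/fl cells, and at 97.08 and 95.08 with tamoxifen, against 98.03 and 88.26 with ethanol in Baf53a fl/- cells. In chr2:108683802-108684814 the difference was -2.09 (SE 0.47, limma adjusted p 0.04345). That region stood at 97.41 and 71.08 with tamoxifen, against 99.84 and 99.79 with ethanol in Brg1 fl/fl cells, and at 98.47 and 99.51 with tamoxifen, against 99.31 and 97.87 with ethanol in Baf53a fl/- cells. In each of the 6 regions tamoxifen replicate 2 of the Brg1 line, the shortest list, held the lowest value of these 8 libraries. Each lost its call under 6 to 9 of 12 alternative settings.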

How the results depend on the processing

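The number of broad regions was 11845, 1386 and 177 with limits of 750, 1500 and 2000 bp, and 6834 to 7785 without 1 library in turn. With the 3 lists under 60000 peaks left out, chosen after seeing the data, it was 8283. Of the alternative values for single regions, 154 kept their direction and side of the threshold, 97 kept the direction but lost the call, 1 gained a call and none reversed. For summary values 144 stayed within their limits and 40 moved.

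Rank calls after Brg1 deletion (109) were 68 with no variance trend and 30 to 115 without 1 library. Rank calls at 24 h (2) were 0 with the mean score, 0 with percent rank, 0 with no variance trend and 0 to 4 without 1 library. The Baf53a rank call (1) was 0 with the mean score and with no variance trend, and 0 to 6 without 1 library. Width calls after Brg1 deletion (11) were 1 with no centring, 3 with the widest single peak and 0 to 218 without 1 library. At 24 h the width call (1) was 0 with no centring or the widest single peak, 2 with equal list lengths and 0 to 14 without 1 library. Baf53a width calls were 0 to 5 without 1 library, and 1 h calls 0 to 0.

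The median rank difference after Brg1 deletion was 5.168 with equal list lengths (2.97 to 4.41 without 1 library). Without 1 library it was 3.09 to 5.313 at 24 h, 1.008 to 2.503 after Baf53a deletion and -0.0849 to 1.89 at 1 h. Differences in median width were -263 to 34 bp (Brg1), -135 to 15 bp (24 h), -152.2 to 45.67 bp (1 h) and -128 to 24 bp (Baf53a) without 1 library, so their direction depended on single libraries in each comparison. With 1 library left in an arm, that library is assumed to vary like the other groups.

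Replicate numbers were not taken to pair the samples. Same-numbered deviations had correlations of 0.0826, 0.127 and 0.0614 in rank and 0.142, 0.209 and 0.0495 in width at 1 h, not all above 0.1, and -0.00661 to 0.118 in the comparisons with 2 replicates. With a replicate block rank calls were 152 (Brg1), 9 (24 h) and 3 (Baf53a), and width calls 3 (Brg1) and 0 (24 h). The cause of these changes was not tested. Edges, scores and unknown depth limit all values. List length moved with width and percentile, and the highest median rank of broad regions was that of the shortest list. At near-equal list lengths, replicate 1 of the 24 h comparison had median ranks of 56.09 with ICRF-193 and 52.57 with DMSO. The part of list length in these values was not tested.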

Other observations

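A small set of broad regions had almost the same width in every library. The SD of covered width over the 18 libraries was under 5% of the mean in 6 regions, picked after their values were seen. They were chr2:98506407-98507472, chr7:26052364-26053473, chr11:106649520-106650801, chr12:119539304-119541167, chr17:3081481-3082887 and chr17:39984390-39985731. Of these, 5 reached 1000 bp in all 18 libraries and 3 had a mean percentile above 99. Whether they lie in repeated sequence was not examined.

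Chromosome X was outside the definition used. It held 512 regions with a peak in every library, of which 241 (47.1%) were 1000 bp or wider, against 7197 of 17549 (41.0%) on the autosomes. The autosomes held 10085 merged regions of 1000 bp or more in all, and 2888 of them (28.6%) lacked a peak in at least 1 library.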
